A study of Mus musculus with 2 samples.

Results

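The proteasome subunit genes are the genes whose symbols follow the pattern Psma, Psmb, Psmc, Psmd, Psme, Psmf or Psmg with a number, and all genes that carry such a symbol were taken, without regard to their values. They were 48 of the 23236 genes named in the files, and 47 of them were among the 13796 genes that reached 1 FPKM in at least 1 library, the genes compared. The gene left out of the comparison was Psmb11, the catalytic subunit of the thymus proteasome, which had 0.0152 FPKM in the wild-type library against 0.0138 FPKM in the knockout library. FPKM is a count of fragments scaled to the length of the transcript and the size of the library, so levels of different genes can be set side by side. The RefSeq gene table holds 49 such symbols, and Psme2b was not analysed here.

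The study compared postnatal spermatogonial progenitor cells, the germ cells that maintain sperm production, from testes of C57BL/6 mice at 8 days post partum. There was 1 wild-type library and 1 Dnmt3l knockout library of poly(A)-selected RNA, read as paired ends of 100 nt. Dnmt3l encodes a cofactor of the DNA methyltransferases that has no methyltransferase activity of its own. The labels give no number of animals, no pooling of animals, no design of the knockout allele and no means of isolating the cells. With 1 library of each genotype, no difference below has a replicate check, and none was tested. No strand mark is part of the library protocol in the labels.

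The proteasome is the protease of the cytoplasm and nucleus that degrades proteins tagged with ubiquitin. Its 20S core is a barrel of alpha rings around beta rings, with the proteolytic sites inside the beta rings. The 19S regulatory particle caps the barrel, binds ubiquitin chains, removes them and unfolds the substrate with a ring of ATPases. Other caps (the PA28 and PA200 activators) replace the 19S particle on part of the cores, immune cells and interferon-treated cells swap the catalytic beta subunits for immune forms, and meiotic germ cells use a testis form of 1 alpha subunit. The subunits are made in parallel because the particle holds them in fixed numbers, and the mammalian genes are known to be raised together by the transcription factor NRF1 (the product of Nfe2l1) when proteasome activity is short.

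Dnmt3l itself had 1.67 FPKM (bounds 0.79 to 2.68) in the wild-type library and was listed at 0 in the knockout library, so the genotype labels matched its level. Depth cannot be given because the values used carry no read counts, and intervals from counts were not computed. Markers of 2 germ cell lists were present in both libraries, with summed levels between 167 and 894 FPKM, as were markers of Sertoli, Leydig, endothelial and immune cells, whose values are given beside the immune subunits.

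In the data as deposited, most proteasome genes lay slightly higher in the knockout library, by about as much as the other abundant genes. The log2 ratio used throughout is log2((knockout FPKM + 1)/(wild-type FPKM + 1)), which understates the difference of low genes. Where a pair of levels is given, the wild-type library comes first. Its median over the 47 genes was 0.26, against 0.22 over all 13796 genes compared. The ratio was above 0 for 41 of 47 proteasome genes and for 66% of all genes. Because the median of the 12498 genes that reached 1 FPKM in each library was itself 0.21, each ratio can also be read against that shift. Relative to it, 30 proteasome genes were higher and 17 lower in the knockout library. Upper-quartile scaling left 29 above 0.

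At least 2-fold higher in the knockout library were 3 proteasome genes, against a background of 7.69% of all genes, and these were Psmb6, Psmb8 and Psme4. None was at least 2-fold lower, against 3.5% of all genes. At 1.5-fold, 7 genes were higher (background 22.7%) and none was lower (background 9.02%). The gene nearest to the 2-fold limit from below was Psmb9, at a log2 ratio of 0.74. When the libraries were centred on the median gene, none of the 47 reached 2-fold, and the shares of all genes became 4.90% higher and 5.42% lower.

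The authors' files give each FPKM with a lower and an upper bound, which describe the estimate within 1 library and not the spread between animals. These bounds lay apart and higher in the knockout library for 28 proteasome genes (background 35.5%) and apart and lower for 3 (background 16.1%). They overlapped for 16. The deposited value of 10 proteasome genes lay outside its own bounds in at least 1 library. Such values made up 14.9% of proteasome genes in each library, against 2.50% (wild-type) and 3.61% (knockout) of all genes. The counts of bounds apart, here and below, include such genes. Psma6 was counted as apart although its lower knockout bound, 141.3 FPKM, lay below its wild-type value of 142.1 FPKM. Psmg2 was a like case, at 46.7 and 47.9 FPKM. The proteasome genes are abundant, so genes of like level were set beside them. Where both libraries reached 50 FPKM, the bounds lay apart and higher for 24 of 36 proteasome genes (66.7%) and for 911 of 1422 genes in all (64.1%). In that abundant class the median ratio was 0.26 for proteasome genes and 0.32 for all. By the bounds as deposited, the share of proteasome genes with separate bounds was near that of all genes of like level. How often values lay outside their bounds among all genes of that class was not tested.

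The ratios of the proteasome genes ran from -0.52 (Psma3) to 1.05 (Psmb6), with an interquartile range of 0.34, against 0.69 over all genes and 0.65 over the 8261 genes of 10 FPKM or more in at least 1 library. In the class that reached 50 FPKM in each library the interquartile ranges were closer, 0.34 for 36 proteasome genes and 0.44 for 1422 genes. Across the 47 genes, Pearson's r between the log levels of the 2 libraries was 0.97 and Spearman's rho 0.96. This is a correlation across genes of 2 libraries, and genes are not independent replicates.

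**Figure D1:**
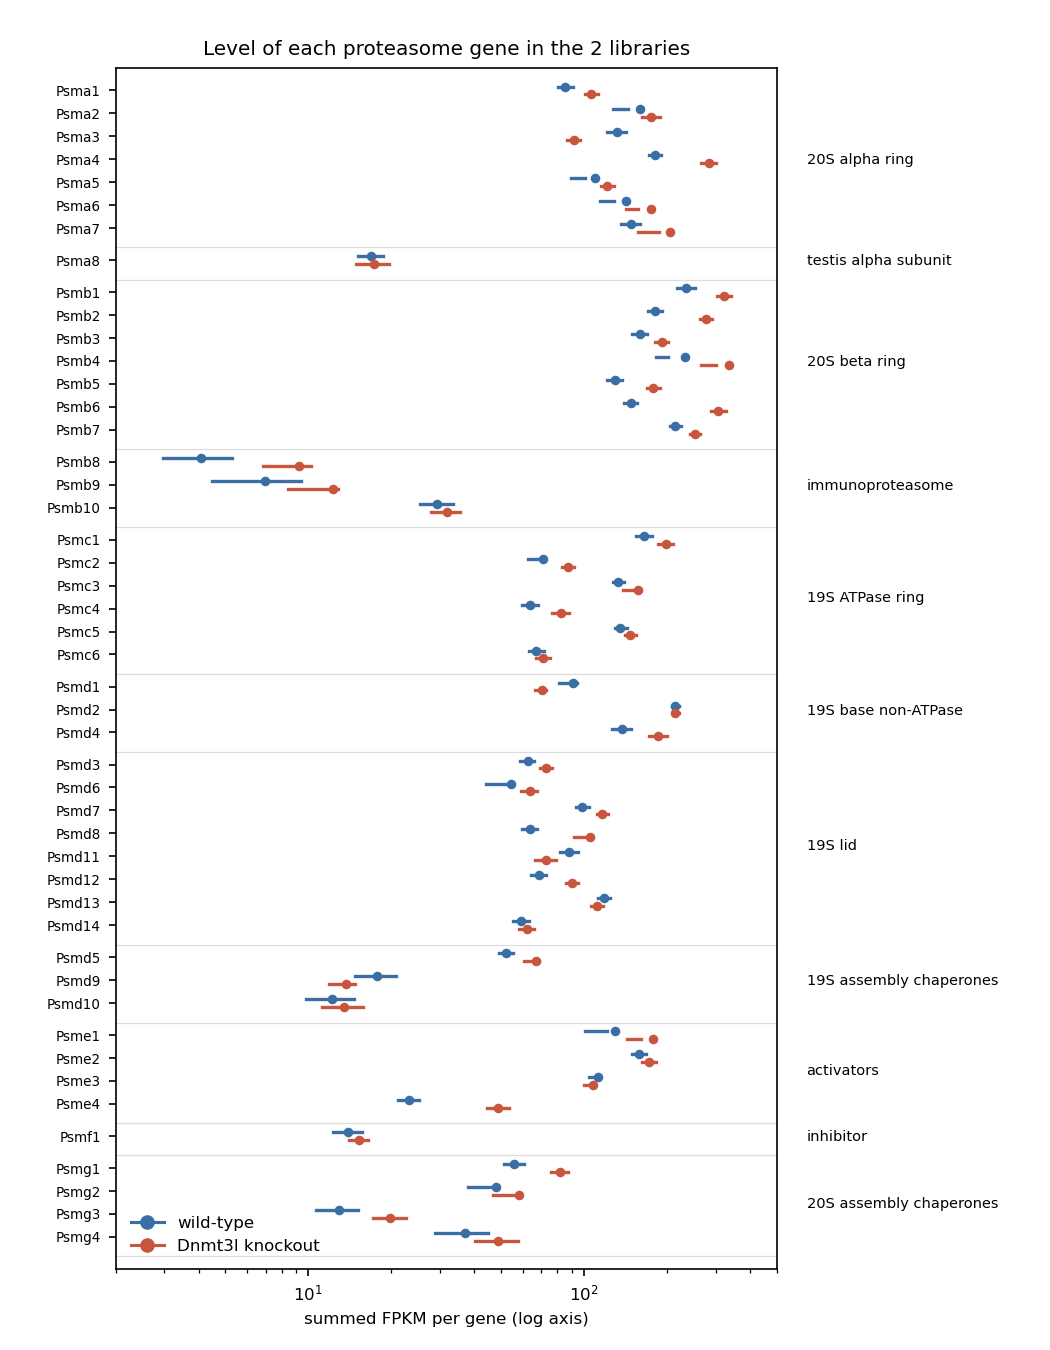
Summed FPKM of each of the 47 compared proteasome genes (log axis) in the wild-type library (blue) and the Dnmt3l knockout library (red), grouped by role. Points are the deposited estimates and lines run from the summed lower to the summed upper bound within a library, so they show no spread between animals. The constitutive subunits of the 20S rings lie between 85.4 and 334 FPKM, the immune and testis subunits between 4.07 and 31.7 FPKM, and 10 genes have a point outside its own line in at least 1 library.

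The alpha ring, Psma1 to Psma7, forms the gate of the barrel, and its log2 ratios spread from -0.52 (Psma3) to 0.64 (Psma4). Levels in the wild-type library ran from 85.4 FPKM (Psma1) to 181 FPKM (Psma4), with a median of 142 FPKM. In the knockout library they ran from 91.6 FPKM (Psma3) to 283 FPKM (Psma4), with a median of 174 FPKM. The knockout value was higher for 6 of 7 subunits in the deposited values, but for 4 of 7 relative to the median gene, and the median log2 ratio was 0.29. Psma4 had the highest ratio of the ring at 0.64. The RefSeq transcript of Psma4 by itself had 181 FPKM in the wild-type library against 207 FPKM in the knockout library, a log2 ratio of 0.20. The rest of the knockout value came from 1 assembled model of 657 nt at 75.4 FPKM. Exons of Psma4 overlap 45 nt of the opposite-strand gene AY074887, whose reads may not be separable from it.

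Psma3 is the alpha subunit with the lowest ratio, and its direction depended on which transcripts were counted. It had 132 FPKM (bounds 121 to 142) in the wild-type library against 91.6 FPKM (bounds 86.5 to 96.8) in the knockout library, a log2 ratio of -0.52. Its RefSeq transcript alone had 59.0 FPKM in the wild-type library against 91.6 FPKM in the knockout library, a log2 ratio of 0.62. The wild-type library also held an assembled model of 12 exons that begins 2113 nt upstream of the RefSeq start, at 72.5 FPKM. The mean level over the RefSeq exon bases, called the exon level below, gave -0.18. The wild-type signal of Psma3 was thus divided between 2 transcripts, and the knockout signal was assigned to 1.

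Psma8 encodes the alpha subunit of the meiotic proteasome, which takes the place of Psma7 in spermatocytes. It had 16.9 FPKM (bounds 15.1 to 18.7) in the wild-type library against 17.2 FPKM (bounds 14.8 to 19.7) in the knockout library, a log2 ratio of 0.03, so the bounds overlapped nearly whole. The RefSeq transcript alone had 16.9 and 14.4 FPKM, a log2 ratio of -0.22, and a model found in the knockout library only added 2.86 FPKM. Relative to Psma7, at 148 and 205 FPKM, Psma8 stood at 11.4% in the wild-type library and 8.42% in the knockout library. The knockout value of Psma7 lies outside its own bounds (156 to 186 FPKM). The 6 spermatocyte markers examined had a median ratio of -0.29, and 1 of them was above 0. RefSeq transcripts alone gave a median of -0.06 and the exon level -0.46, each with 2 above 0. The summed level of the 6 markers was 198 FPKM in the wild-type library against 167 FPKM in the knockout library. In bulk RNA, fewer cells of a type and less RNA per cell cannot be told apart.

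The beta ring holds the proteolytic sites, and all 7 of its constitutive subunits were higher in the knockout library with bounds apart. All 7 were also above the median gene and above 0 with upper-quartile scaling. Of all genes, 35.5% were higher with bounds apart, and 64.1% of those that reached 50 FPKM in both libraries. RefSeq transcripts alone gave 6 of 7 above 0, and both values of Psmb4 lie outside their own bounds. The median log2 ratio of the ring was 0.46, with a range of 0.24 (Psmb7) to 1.05 (Psmb6). Median levels of the ring were 181 FPKM in the wild-type library against 276 FPKM in the knockout library. The ring is among the most abundant groups of the family: Psmb1, a structural beta subunit, exceeded 98.6% of the compared genes in the wild-type library and 98.7% in the knockout library. The transcripts of the ring are short, with a median of 949 nt, and after the median of genes of like length was taken from each ratio, 2 of 7 stayed above 0 and the median was -0.08.

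Psmb6 encodes the beta1 subunit, the caspase-like site, which cuts after acidic residues. It lies at chr11:70525357-70527858 (plus strand, mm10), with 6 exons and a RefSeq transcript of 1036 nt. It had 147 FPKM (bounds 139 to 156) in the wild-type library against 306 FPKM (bounds 288 to 326) in the knockout library, a log2 ratio of 1.05, or 0.84 relative to the median gene. The bounds were far apart. The RefSeq transcript by itself had 147 and 225 FPKM, for a log2 ratio of 0.60, and an assembled model of 674 nt, found in the knockout library only, added 81.4 FPKM. The exon level gave a ratio of 0.89. The 3 measures all placed Psmb6 higher in the knockout library, with a size that moved with the assembled model. The RefSeq gene table names 2 pseudogenes of Psmb6, and reads shared with them could not be separated here.

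Psmb5, the chymotrypsin-like site, had 129 FPKM (bounds 121 to 137) in the wild-type library against 178 FPKM (bounds 169 to 188) in the knockout library, a log2 ratio of 0.46. Psmb7, the trypsin-like site, was at 213 FPKM (bounds 204 to 224) and 252 FPKM (bounds 243 to 263), a log2 ratio of 0.24. Neither gene had an assembled model, so their ratios were the same by every way of counting transcripts. By summed FPKM and exon level Psmb6 was above Psmb7 in the knockout library and below it in the wild-type library, but its RefSeq transcript alone, at 225 FPKM, was below Psmb7 there too. Psmb5 and Psmb7 have named pseudogenes too, as does Psma5.

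Psmb4, a structural subunit needed to complete the barrel, had 232 FPKM in the wild-type library against 334 FPKM in the knockout library, a log2 ratio of 0.52. Its RefSeq transcript alone gave -0.73, since 194 FPKM of the knockout value sat on a model of 8 exons that begins 447 nt upstream. The exon level gave 0.49. In both libraries the deposited value of Psmb4 lay outside its own bounds (182 to 202 and 265 to 302 FPKM). That was so for 7 of the 47 genes in each library, or 14.9%, against 2.50% of all genes in the wild-type library and 3.61% in the knockout library. The genes outside in both were Psma6, Psmb4, Psme1 and Psmg2, and the reason is not given in the sources used here.

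The immune beta subunits were rare beside the constitutive ones. Psmb8, the immune counterpart of Psmb5, lies at chr17:34198195-34201454 (plus strand, mm10). It had 4.07 FPKM (bounds 2.98 to 5.27) in the wild-type library against 9.23 FPKM (bounds 6.87 to 10.2) in the knockout library, a log2 ratio of 1.01, with bounds apart. The wild-type value came from 1 assembled model of 7 exons that begins 475 nt upstream of the RefSeq start, while the RefSeq transcript was listed at 0 there. In the knockout library all of the value sat on the RefSeq transcript. The exon level, which both kinds of transcript enter, was 3.49 and 9.23 FPKM, a log2 ratio of 1.19.

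Psmb9, the immune counterpart of Psmb6, had 6.96 FPKM (bounds 4.46 to 9.44) in the wild-type library against 12.3 FPKM (bounds 8.41 to 12.9) in the knockout library, a log2 ratio of 0.74. The bounds overlapped. Psmb10, the immune counterpart of Psmb7, was at 29.4 FPKM (bounds 25.4 to 33.3) and 31.7 FPKM (bounds 27.9 to 35.6), a log2 ratio of 0.11 that turns to -0.10 relative to the median gene. The immune subunits therefore did not share 1 ratio. Against its constitutive partner, Psmb8 stood at 3.16% of Psmb5 in the wild-type library and 5.18% in the knockout library. Psmb9 stood at 4.72% and 4.03% of Psmb6, and Psmb10 at 13.8% and 12.6% of Psmb7. The direction for Psmb9 rests on the Psmb6 model of the knockout library: the exon level gave 4.36% and 4.49%, and RefSeq transcripts alone 3.71% and 5.49%.

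Immune proteasome genes are strongly expressed in leukocytes, and the marker lists of 4 somatic cell types had medians above 0 in this comparison. Over all genes, 66% of ratios were above 0, the share to set beside the counts of markers. The 12 macrophage and leukocyte markers had a median ratio of 1.04, with 9 above 0, and summed to 516 FPKM in the wild-type library against 996 FPKM in the knockout library; Cd68 was listed at 0 in the knockout library. The 10 Sertoli cell markers had a median of 0.78, with all 10 above 0 and 9 above the median gene, and summed to 435.5 and 957 FPKM. RefSeq transcripts alone put 8 of the 10 above 0, with a median of 0.94. For the 5 Leydig cell markers compared of 6 (Star was listed at 0 in both libraries) the median was 0.99, with 4 above 0. For 6 endothelial markers it was 0.87, also with 4 above 0, a share near that of all genes. The endothelial markers below 0 were Kdr and Tek. RefSeq transcripts alone gave medians of 0.71 and 0.30 for the Leydig and endothelial lists. Their summed levels were 60.5 and 136 FPKM (Leydig) and 52.2 and 106 FPKM (endothelial). The 10 germ cell markers had a median of -0.26, with 3 above 0, and summed to 894 and 726 FPKM. RefSeq transcripts alone gave them a median of -0.06, with 4 above 0, and the exon level -0.27, with 2 above 0. The part of these cell types in the values of Psmb8 and Psmb9 was not tested.

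Partners of the immune proteasome in antigen presentation are described by 7 genes: Tap1, Tap2, Tapbp, B2m, Nlrc5, Irf1 and Erap1. Of these, 6 were above 0 (background 66%) and 5 were above the median gene, with a median ratio of 0.55. By summed FPKM 1 of them, Tap1, was at least 2-fold higher (background 7.69%). RefSeq transcripts alone gave a median of 0.036, with 4 above 0. Tap1, a chain of the peptide transporter, had 2.77 FPKM in the wild-type library against 7.83 FPKM in the knockout library, a log2 ratio of 1.23, though its RefSeq transcript alone gave -0.26 and its exon level 0.58. Tap2, the other transporter chain, had 2.51 and 4.70 FPKM, for a log2 ratio of 0.70. Tapbp, which loads peptides, had 40.6 and 61.9 FPKM, for a log2 ratio of 0.60. Erap1, which trims peptides, went the other way, at 26.9 and 15.3 FPKM, a log2 ratio of -0.78.

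The sequences upstream of the genes that stand out are shown because they are where the known regulators of the family bind. Windows from RefSeq (build GRCm38.p6) cover 250 bases before to 50 after a gene's start, and 43 windows matched 40 of the 48 genes. The 250 bases before the start are printed for the 3 genes at least 2-fold higher, Psmb6 (chr11:70525107-70525356, plus strand), Psme4 (chr11:30771525-30771774, plus strand) and Psmb8 (chr17:34197945-34198194, plus strand), and for Psmb9 (chr17:34187331-34187580, minus strand). Each is written 5′ to 3′ along its gene, ending at the base before the start. Capitals mark the antioxidant response element core in Psmb6, an ETS core in Psme4 and a GC box in Psmb9, and Psmb8 has none because no motif searched was in its window.
Psmb6: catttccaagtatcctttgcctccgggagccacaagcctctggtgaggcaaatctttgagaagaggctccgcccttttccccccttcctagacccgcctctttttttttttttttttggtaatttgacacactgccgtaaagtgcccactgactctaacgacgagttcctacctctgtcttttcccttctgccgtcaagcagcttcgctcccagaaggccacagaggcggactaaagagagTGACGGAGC
Psme4: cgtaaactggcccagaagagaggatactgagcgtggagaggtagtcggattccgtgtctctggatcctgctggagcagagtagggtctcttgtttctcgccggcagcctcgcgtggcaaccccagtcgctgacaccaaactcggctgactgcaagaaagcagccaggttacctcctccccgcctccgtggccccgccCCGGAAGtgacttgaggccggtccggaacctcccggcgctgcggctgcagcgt
Psmb8: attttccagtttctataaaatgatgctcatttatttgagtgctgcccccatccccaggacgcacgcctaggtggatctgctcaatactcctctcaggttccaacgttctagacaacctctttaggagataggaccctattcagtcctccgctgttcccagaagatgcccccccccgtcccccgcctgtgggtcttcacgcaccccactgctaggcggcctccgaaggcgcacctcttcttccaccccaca
Psmb9: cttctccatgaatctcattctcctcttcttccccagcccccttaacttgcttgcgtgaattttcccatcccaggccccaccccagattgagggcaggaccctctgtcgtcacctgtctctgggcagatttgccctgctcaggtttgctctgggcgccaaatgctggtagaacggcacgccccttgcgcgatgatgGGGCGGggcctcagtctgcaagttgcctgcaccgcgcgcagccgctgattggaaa

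The motifs searched, on both strands, were TGACNNNGC (the antioxidant response element core bound by NRF1 and NRF2), CCAAT (NF-Y), GGGCGG (SP1), CCGGAAG (ETS) and CACGTG (MYC), with the interferon response element core (IRF) and the half-palindrome core of NF-kB. The NRF1 motif was in 6 of 43 proteasome windows (14.0%), those of Psmb5, Psmb6, Psmc6, Psmd9, Psmd12 and Psme4. It was in 14.2% of the 13973 windows of compared genes and in 12.4% of all 32817 windows, so the share was near the background. Of the 3 genes at least 2-fold higher, Psmb6 and Psme4 hold it and Psmb8 does not. By summed FPKM the 6 genes with it had a median ratio of 0.43 and the 33 compared genes without it 0.26. The first median depends on assembled models: at the exon level the 6 genes ran from -0.36 (Psme4) to 0.89 (Psmb6). The medians were not recomputed at that level, and their difference was not tested.

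The ETS core was in 15 of 43 windows (34.9%), against 16.3% of the windows of compared genes. The 14 genes with an ETS core had a median ratio of 0.28, and the 25 compared genes without it 0.31, so the medians were close. The IRF motif was in 5 windows (11.6% against 2.79%), those of Psmb3, Psmd4, Psmd9, Psme1 and Psmg4, and none of the immune beta genes. GGGCGG was in 55.8% of proteasome windows and 61.0% of those of compared genes, CCAAT in 32.6% and 38.1%, and CACGTG in 9.30% and 9.95%. The NF-kB core was in none of the 43 and in 0.200% of those of compared genes.

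Psmb9 and Tap1 lie head to head with 226 nt between their starts, so the 250 bases printed for Psmb9 also span the start of Tap1. The log2 ratios of the pair were 0.74 and 1.23 with assembled models counted, and 1.04 and -0.26 with RefSeq transcripts alone. A match to a motif describes letters in a window and says nothing of binding in these cells.

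The 19S particle was flatter across the genotypes than the 20S core as deposited. Its 17 subunits had a median log2 ratio of 0.22, with 14 above 0 and 9 higher with bounds apart, and 10 lay above the median gene. The 14 constitutive core subunits had a median of 0.38, with 13 above 0 and 12 higher with bounds apart, and 11 lay above the median gene. Of all genes, 66% were above 0 and 35.5% were higher with bounds apart. The latter share was 64.1% among genes that reached 50 FPKM in both libraries. The core transcripts are shorter, with a median of 983 nt against 1564 nt. After the median of genes of like length was removed, the medians were the same to 2 decimals, -0.14 for both.

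The ATPase ring, Psmc1 to Psmc6, unfolds substrates and had the narrowest range of ratios among the role groups of several genes. All 6 ratios were above 0 as deposited and 4 were above the median gene, between 0.08 (Psmc6) and 0.36 (Psmc4), with a median of 0.25. The highest level was that of Psmc1, at 165 FPKM in the wild-type library against 197 FPKM in the knockout library. The lowest in the wild-type library was that of Psmc4, at 63.7 FPKM, against 82.3 FPKM in the knockout library. Psmc6 was lowest in the knockout library, at 71.0 FPKM, against 67.1 FPKM in the wild-type. In both libraries an assembled Psmc1 model began over 2000 nt upstream of the RefSeq start of the files, 2205 nt in the wild-type (90.7 FPKM) and 2178 nt in the knockout library (113 FPKM). The start in the current RefSeq table lies 2129 nt upstream, near those of the models.

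Among the other base subunits, Psmd2, a scaffold and ubiquitin receptor, had almost the same level in both libraries, 213.0 FPKM (bounds 207 to 221) and 213.3 FPKM (bounds 209 to 221). Psmd4, also a ubiquitin receptor, had 137 and 185 FPKM, for a log2 ratio of 0.43. Psmd1, the largest scaffold, had 91.1 FPKM (bounds 80.9 to 94.2) in the wild-type library against 70.4 FPKM (bounds 66.1 to 72.5) in the knockout library, a log2 ratio of -0.37. Here too the difference sat on an assembled model, 1135 nt at 24.6 FPKM over the 3′ part of the transcript in the wild-type library. Counted alone, its RefSeq transcript had 66.5 and 70.4 FPKM, for a log2 ratio of 0.08.

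The lid, 8 subunits that include the deubiquitinase Psmd14, had a median ratio of 0.22, with 6 above 0 as deposited and 5 above the median gene. Psmd8 had the highest ratio, at 63.5 FPKM (bounds 59.4 to 67.6) in the wild-type library against 105 FPKM (bounds 91.5 to 102) in the knockout library, a log2 ratio of 0.72; the knockout value lies outside its own bounds. Psmd11, a structural lid subunit, had the lowest, at 88.2 FPKM (bounds 81.8 to 94.7) and 72.5 FPKM (bounds 66.5 to 78.7), a log2 ratio of -0.28. Its RefSeq transcript alone gave 0.13 and its exon level -0.40. Psmd14 itself was at 59.0 and 61.9 FPKM, with bounds that overlapped. Lid levels ran from 54.2 FPKM (Psmd6) to 118 FPKM (Psmd13) in the wild-type and from 61.9 FPKM (Psmd14) to 116 FPKM (Psmd7) in the knockout library.

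Subunits of a ring are needed in equal numbers, but their transcripts spanned a range of levels. In the wild-type library the highest subunit was 2.11 times the lowest in the alpha ring, 1.81 times in the beta ring, 2.59 times in the ATPase ring and 2.18 times in the lid. In the knockout library these values were 3.09, 1.88, 2.78 and 1.87. The alpha ring spanned more in the knockout library, with Psma3 at its bottom and Psma4 at its top, both genes with an assembled model in 1 library.

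The 4 assembly chaperones of the 20S core were all higher in the knockout library (66% of all genes were). They were so also relative to the median gene and with upper-quartile scaling. Psmg1, which with Psmg2 holds the alpha ring together during assembly, had 55.7 and 81.6 FPKM, for a log2 ratio of 0.54. Psmg3, of the other chaperone pair, had 12.9 and 19.9 FPKM, for a log2 ratio of 0.58 and the highest of the group. Psmg2 was at 47.9 and 58.2 FPKM, the lowest ratio at 0.28, and Psmg4 at 36.8 and 48.9 FPKM. The median of the 4 was 0.47, close to that of the beta ring. After the median of genes of like length was removed it was -0.07, with 1 of 4 above 0.

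The chaperones of the 19S base were at lower levels and without 1 direction. Psmd5 had 52.1 and 67.2 FPKM, for a log2 ratio of 0.36. Psmd10, also known as gankyrin, had 12.2 and 13.5 FPKM, for a log2 ratio of 0.13. Psmd9 was at 17.8 FPKM (bounds 14.7 to 20.8) and 13.7 FPKM (bounds 11.9 to 14.8), a log2 ratio of -0.36, while its RefSeq transcript alone gave 0.80 and its exon level 0.20. The wild-type library assigned 10.4 FPKM of Psmd9 to a shorter model of 1081 nt.

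The activators, the caps other than the 19S particle, did not share 1 ratio. Psme1 and Psme2 form the interferon-inducible PA28 ring. Psme1 had 129 and 177 FPKM, for a log2 ratio of 0.45, with both values outside their own bounds, and it shares 4 nt of exon with Emc9 on the opposite strand. Psme2 was at 158 FPKM (bounds 149 to 168) and 172 FPKM (bounds 163 to 181), a log2 ratio of 0.11 that turns to -0.09 relative to the median gene. Psme3, the nuclear PA28 gamma, was at 112 FPKM (bounds 104 to 113) and 108 FPKM (bounds 100.0 to 108), a log2 ratio of -0.06. The bounds of Psme2 overlapped between the libraries, and so did those of Psme3.

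Psme4 encodes PA200, an activator of the nuclear proteasome known for acetylated histone degradation in spermatids. It lies at chr11:30771775-30880361 (plus strand, mm10), and its RefSeq transcript of 6442 nt and 47 exons is the longest of the family. The summed values were 23.1 FPKM (bounds 21.1 to 25.2) in the wild-type library against 48.8 FPKM (bounds 44.3 to 53.5) in the knockout library, a log2 ratio of 1.05. The RefSeq transcript alone was lower in the knockout library, at 12.2 FPKM (bounds 11.3 to 13.1) and 8.46 FPKM (bounds 7.79 to 9.13), a log2 ratio of -0.48. So the direction depends on what is counted, and the exon level gave -0.36.

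By the assigned transcripts, the higher summed value of the knockout library lay at the 3′ end of Psme4. In the knockout library a model of 921 nt and 4 exons over the end of the transcript carried 40.4 FPKM (bounds 36.5 to 44.4). In the wild-type library a longer model of 3693 nt and 28 exons carried 10.9 FPKM. Over bases 1 to 2724 of the spliced transcript the level was 12.2 FPKM in the wild-type library against 8.46 FPKM in the knockout library, over bases 2725 to 5471 it was 23.1 and 8.46 FPKM, and over bases 5472 to 6360, from exon 45 on, it was 23.1 and 48.8 FPKM. These levels are sums of the transcripts assigned to each base, not read coverage. By them Psme4 was lower in the knockout library up to base 5471 and higher over bases 5472 to 6360. The step between them is the short knockout model added to the RefSeq transcript, and reads along the gene were not examined. Relative to Psme3, Psme4 stood at 20.6% in the wild-type library and 45.3% in the knockout library by summed FPKM. That share rests on the same model: at the exon level it was 16.4% and 13.0%.

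**Figure D2:**
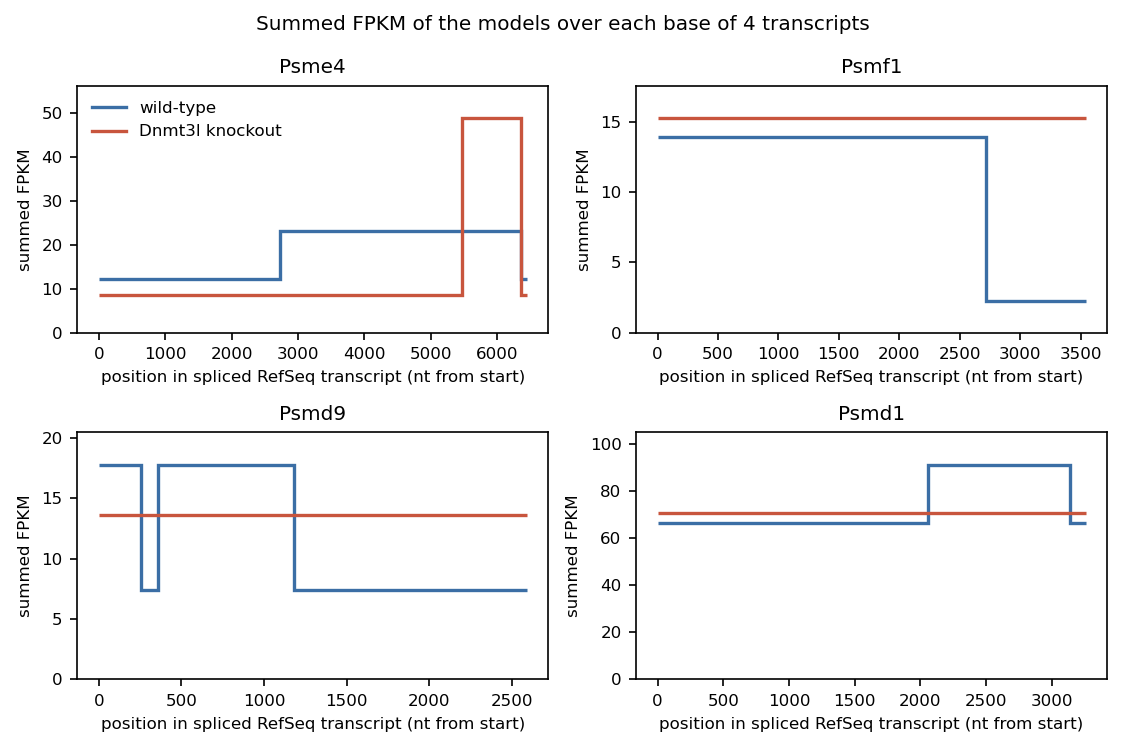
Summed FPKM of the transcripts and models that cover each base of the spliced RefSeq transcript (x axis, nt from its start) for Psme4, Psmf1, Psmd9 and Psmd1, in the wild-type (blue) and knockout (red) library. For Psme4 the red line lies at 8.46 FPKM up to base 5471 and at 48.8 FPKM over bases 5472 to 6360, and for Psmf1 the blue line is at 13.9 FPKM up to base 2722 and at 2.23 FPKM after it. These are steps of the assembled models, not read coverage.

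Psmf1, the PI31 protein that binds and can inhibit the core, had near equal summed levels, 13.9 FPKM (bounds 12.2 to 15.6) and 15.2 FPKM (bounds 14.1 to 16.4). Its RefSeq transcript alone had 2.23 and 15.2 FPKM, for a log2 ratio of 2.33. The wild-type library assigned 11.7 FPKM to a model of 2722 nt that has the same 7 exons and ends before the RefSeq end. Over the first 1000 nt the levels were 13.9 and 15.2 FPKM, and over the last 1000 nt 4.33 and 15.2 FPKM. The knockout library lists only the RefSeq transcript, so its level is the same over every base by construction. The step near the end reflects how the wild-type value was divided between the model and the RefSeq transcript. It is no measured difference between the libraries at that end.

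Over the first and last 1000 nt, Psmd9 went the same way as Psmf1, at 16.7 and 13.7 FPKM over the first and 7.43 and 13.7 FPKM over the last. Psmd1 went the other way, at 66.5 and 70.4 FPKM over the first and 88.2 and 70.4 FPKM over the last. The files give no separate levels for the ends of genes with 1 RefSeq transcript and no assembled model. This holds for Psmf1, Psmd9 and Psmd1 in the knockout library, where 1 level stands for both ends.

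**Figure D3:**
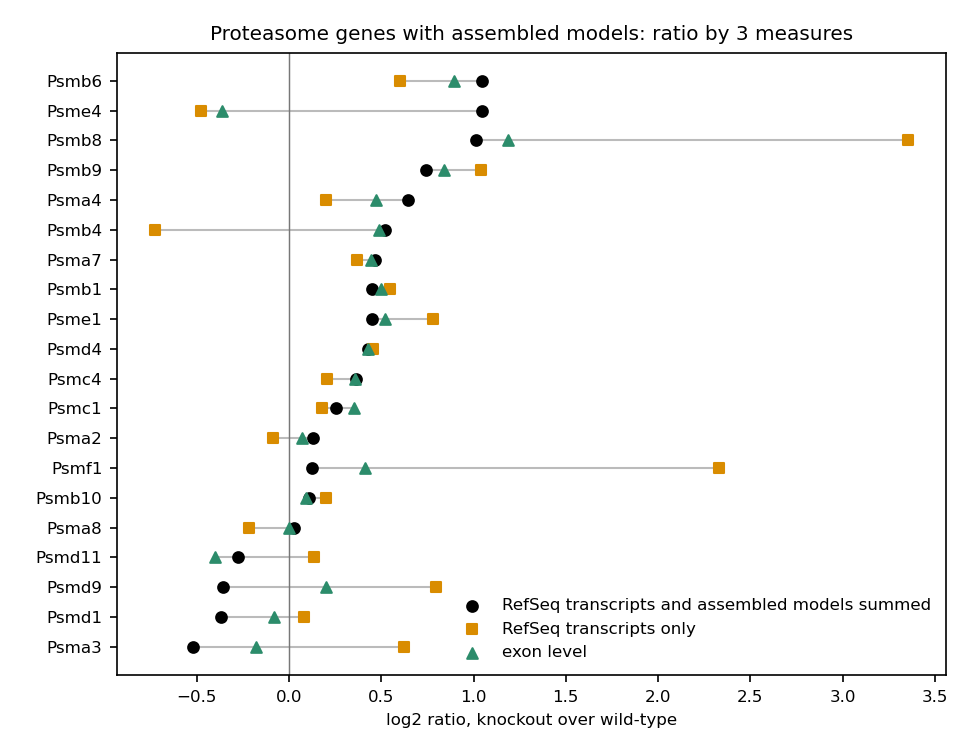
The log2 ratio of knockout over wild-type for the 20 proteasome genes with an assembled model, by summed FPKM (black), RefSeq transcripts alone (orange) and exon level (green). Psme4 is at 1.05, -0.48 and -0.36, and Psma3 at -0.52, 0.62 and -0.18; the orange square of Psmb8 rests on a wild-type value listed at 0 and is no measure of a fold.

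Assembled models entered the value of 20 of the 47 genes, in both libraries for 7, in the wild-type library only for 7 and in the knockout library only for 6. The 27 genes with no model had ratios from -0.08 (Psmd13) to 0.72 (Psmd8) with a median of 0.24, and the 20 with a model had ratios from -0.52 to 1.05 with a median of 0.40. All 3 genes lower with bounds apart (Psma3, Psmd1 and Psmd11) and all 3 at least 2-fold higher had a model. The ratio of the RefSeq transcripts alone was above 0 for 41 of 47 genes, with a median of 0.24, and the exon level was above 0 for 41, with a median of 0.26. The median of the proteasome genes thus differed little between the ways of counting, while the extremes differed more. The median of all genes compared was 0.22 by summed FPKM, 0.11 when only RefSeq transcripts were counted and 0.16 by exon level. Above these medians lay 29, 37 and 31 of the 47 proteasome genes, in that order. Where the typical proteasome gene stood against all genes therefore depended on the way of counting.

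Transcript length moved with the ratio in the proteasome genes as in all genes. For the 47 genes Spearman's rho between ratio and the length of the longest RefSeq transcript was -0.50 and Pearson's r -0.27, and without Psme4 rho was -0.59 and r -0.54. Over all compared genes rho was -0.40 and r -0.29. These are correlations across genes of the same 2 libraries. Under 1000 nt, 14 proteasome genes had a median ratio of 0.46 and 1213 genes in all 0.54. From 1000 nt to under 1500 nt the medians were 0.28 (15 genes) and 0.46 (1479 genes), from 1500 nt to under 2000 nt 0.16 (10 genes) and 0.36 (1766 genes), and from 2000 nt on 0.06 (8 genes) and 0.09 (9338 genes). In every class the proteasome median lay below that of all genes of the class.

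When the median of its length bin (20 bins of all genes) was taken from each ratio, 11 proteasome genes stayed above 0 and 36 lay below it, with a median of -0.13. The genes above included Psme4 at 1.19, Psmb8 at 0.52, Psmb6 at 0.50 and Psmd8 at 0.30. Thus the sign of the typical proteasome gene depended on the reference: above 0 as deposited, near 0 at 0.05 relative to the median gene, and below 0 relative to genes of like length.

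**Figure D4:**
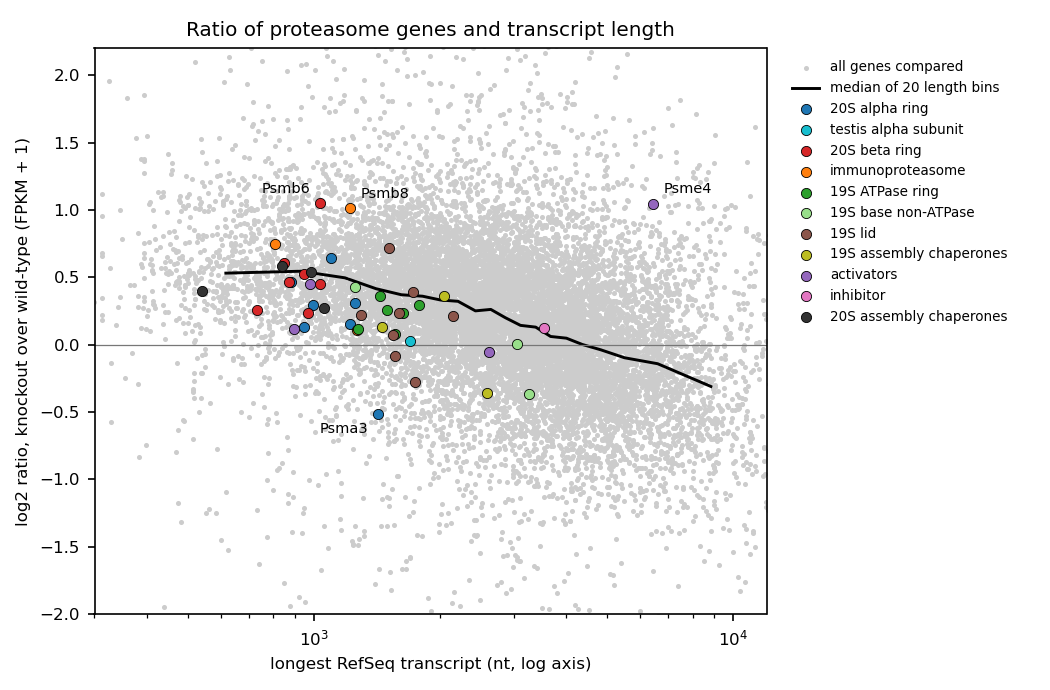
Log2 ratio of knockout over wild-type (FPKM + 1) against the longest RefSeq transcript (nt, log axis) for the 47 compared proteasome genes, coloured by role, over all 13796 genes compared (grey), with the median of 20 length bins (black line). Of all genes, 458 lie outside the axes. The line passes from over 0.5 for short to below 0 for long transcripts, and 36 of 47 proteasome genes lie below the median of their bin.

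Genes that work with the proteasome but are not subunits were a list of 26, of which 25 were compared. They include receptors that deliver ubiquitin chains, deubiquitinases, the maturation factor Pomp, the NRF1 gene Nfe2l1 and its activators, and the ubiquitin genes. Their median ratio was 0.09, with 16 above 0 and 12 above the median gene. RefSeq transcripts alone gave a median of 0.35 and the exon level 0.28, each with 16 above 0. By summed FPKM none was at least 2-fold higher (background 7.69%) and 2 were at least 2-fold lower in the knockout library (background 3.5%), and neither of these reached 2-fold at the exon level. Their summed level was 5979 FPKM in the wild-type library against 7902 FPKM in the knockout library, most of it from the ubiquitin genes.

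The largest ratios of that list were those of Zfand5, Ddi2, Ubb and Fbxo7. Zfand5, which binds the proteasome and raises its activity, had 57.4 FPKM in the wild-type library against 15.8 FPKM in the knockout library, a log2 ratio of -1.79, but its RefSeq transcripts alone gave 2.53 and its exon level -0.02. Ddi2, the protease that cleaves NRF1 to its active form, had 29.1 and 12.7 FPKM, for a log2 ratio of -1.13, with -1.40 for RefSeq transcripts alone and -0.42 for the exon level. Ubb, a polyubiquitin gene, had 882 and 1442 FPKM, for a log2 ratio of 0.71. Fbxo7, a ubiquitin ligase subunit that binds Psmf1, had 21.8 and 34.2 FPKM, for a log2 ratio of 0.63. Ddi2 was lower in the knockout library by all 3 measures, while those of Zfand5 had no common direction.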

How the data were processed

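Each deposited file is a transcript annotation of 1 library, in which every transcript carries an FPKM, a lower bound, an upper bound and a coverage. The FPKM values are as the authors deposited them, and the score column was not used. The build mm10, Cufflinks 2.1.1, TopHat2 2.0.8 and CASAVA 1.9 appear, with no settings, per the submitters' processing notes. Each file lists 30073 RefSeq transcripts and the models assembled from its library (20579 for the wild-type, 20415 for the knockout).

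RefSeq identifiers were given symbols by accession for 29451 of 30079, by the gene names in the files, by RefSeq metadata of GENCODE M21 or by exon overlap for the rest, and 3 stayed unnamed. Models of 300 nt or more were added to the gene with most shared exon bases on their strand, and strandless models only where the shared part was at least 0.5 of their bases. FPKM and bounds were summed per gene, with a pseudocount of 1 and a minimum of 1 FPKM in at least 1 library. Exon level is the mean summed FPKM over a gene's RefSeq exon bases. There was no test, since each genotype had 1 library, and depth is unknown because the FPKM files used carry no counts, so no counting interval is given.

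The members and the gene lists were chosen with earlier results of these data known. Named in full were members at least 2-fold apart, the catalytic, immune and testis subunits, the activators and the extremes of each role; of the 2 lists of partners, up to 4 genes with the largest absolute ratio. A planned gene of the list of immune proteasome partners is not reported here, and that list was recomputed without it. Other members are named beside transcript models, bounds or motifs after their values were seen. Alternatives were other pseudocounts (0.1 and 5), no filter or a minimum of 10 FPKM, upper-quartile scaling, centring on the median gene, RefSeq transcripts only, exon level, the deposited coverage, removal of length-bin medians and a 1.5-fold limit. The calling step was tested on simulated data. Python 3.11.15, numpy 2.4.6, pandas 2.3.3 and matplotlib 3.10.9 were used.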

Additional observations from a re-analysis of the deposited data

How the results depend on the processing

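No value has a replicate check, so the alternatives show only how the 2 libraries read under other choices. The median log2 ratio of the proteasome genes was 0.26 as reported, 0.054 after centring on the median gene, 0.038 after upper-quartile scaling and -0.13 after removal of length-bin medians. The number of genes at least 2-fold higher in the knockout library was 3 as reported and 0 after centring or upper-quartile scaling. It was 1 under 3 other settings, with a different gene each time. That gene was Psmb6 with a pseudocount of 5, Psmb8 with the exon level and Psme4 with length-bin medians removed. RefSeq transcripts only gave 3, but these were Psmb8, Psmb9 and Psmf1. With a 1.5-fold limit the number was 7. No gene was at least 2-fold lower under any of these settings. The ratio of Psme4 changed sign, to -0.48 with RefSeq transcripts only and to -0.36 with the exon level. Among all genes, the shares at least 2-fold higher and lower were 7.69% and 3.50% as reported, 4.90% and 5.42% after centring, 5.02% and 5.10% after upper-quartile scaling, and 10.4% and 10.1% with RefSeq transcripts only. The 27 genes with no assembled model, a selection made after seeing the data, had a median of 0.24. Members at low levels, Psmb8 and Psmb9 above all, have the widest bounds. No paired analysis was possible because there was 1 library per genotype. Leaving out a library was not run for the same reason.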
